A study of Mus musculus with 8 samples.

Results

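The cadherins measured here were Cdh1, Cdh2, Cdh3, Cdh4, Cdh6, Cdh11, Cdh13 and Cdh16, taken as every non-control array probe that carries one of these 8 gene names. They had 14 of the 55681 probes, and all 8 genes were among the 25127 genes and unnamed transcripts tested. Kidney RNA came from CD-1 mice, an outbred stock, and was hybridised to 1-colour Agilent mouse arrays. In one group of 4 arrays the mice had received tacrolimus, a calcineurin inhibitor given against transplant rejection and known to harm the kidney, at 1 mg/kg/day for 28 days. In the control group of 4 arrays they had received physiological serum. The labels number the replicates within a group without naming the animals, so any p-value given reflects only how far these samples vary, which may be technical in part. The labels used here give neither age, sex nor route of dosing. The 8 genes were chosen on measured values, since the tacrolimus minus control difference of Cdh11 on these same arrays was already known. The tacrolimus minus control differences of the 8 genes are therefore a description and carry no test.

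Cadherins are calcium-dependent adhesion proteins that bind the same kind of molecule on a neighbouring cell. Classical cadherins carry a cytoplasmic tail that binds beta-catenin and p120-catenin and, through alpha-catenin, the actin cytoskeleton, and so form adherens junctions. In the kidney, tubule segments differ in the cadherins they carry: Cdh1 is typical of the distal nephron and collecting duct, Cdh2 and Cdh6 of the proximal tubule and its precursors, and Cdh16 of tubules in general, while Cdh11 belongs to mesenchymal cells.

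Levels are log2 signals relative to each array's own 75th percentile, and differences are tacrolimus minus control. Levels of different probes cannot be ordered on an array, so genes are compared by their differences. The scanner software called 64.0% to 69.8% of non-control spots per array well above background, its detection call, and none saturated. Control replicate 2 and tacrolimus replicate 4 stood out from their groups in adipocyte markers. The control arrays lay in one row of the slide and the tacrolimus arrays in the other, so that row and treatment cannot be told apart. Local background averaged 21.8 to 22.1 intensity units for control and 19.3 to 20.5 for tacrolimus samples. All 8 genes had a probe well above background on all 8 arrays, as did 12 of the 14 probes, while the other 2 probes were detected on none. Kidney tissue was borne out by its own markers, with all 8 proximal tubule markers and all 8 of the loop, distal tubule and collecting duct measured on these arrays.

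Probe sequences are given for both Cdh11 probes, whose readouts differ, and, as examples, for a detected probe of Cdh6 and of Cdh13. They were read from the scanner files, 5′ to 3′. Capitals mark the longest run of bases that the probe shares, on the same strand, with an array probe of a gene outside the 8, where that run lies inside the part shown. Both Cdh11 probes are shown by their first 30 bases, and the others whole. Likeness to whole transcripts, or among the 8 genes, was not searched.
Cdh11 A_52_P437795: tattttagtatacatacaaatatcagtatt
Cdh11 A_55_P2181356: atagaacTGTTTGAAATCACAACAGACTga
Cdh6 A_55_P2067478: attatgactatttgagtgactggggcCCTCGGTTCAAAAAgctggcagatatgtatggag
Cdh13 A_51_P114826: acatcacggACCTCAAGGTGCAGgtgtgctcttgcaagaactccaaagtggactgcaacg

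Over the 14 probes the longest such run was 12 to 16 bases for 13 of them, and 21 bases for the Cdh11 probe A_55_P2181356. The 21 bases are shared with a probe of 2610005L07Rik, which RefSeq (GRCm38.p6) lists as a transcribed pseudogene. The 14 bases of the Cdh6 probe are shared with a probe of Cdh9, another type II cadherin. The array annotation places A_52_P437795 at chr8:105157473-105157532 and A_55_P2181356 at chr8:105156895-105156927 on mm9, both on the minus strand. The second interval covers 33 of the probe's 60 bases. It lies 3′ of the first on the gene's strand, although the same annotation starts the probe at base 1442 of the transcript and A_52_P437795 at base 3578, so the placement of A_55_P2181356 is uncertain. The Cdh6 probe lies at chr15:12963981-12964040 on the minus strand and the Cdh13 probe at chr8:121837969-121838028 on the plus strand. No exon annotation was used.

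Among the type II cadherins, Cdh11 and Cdh6 were higher on every tacrolimus array than on any control array at their brightest probe. Cdh11, or OB-cadherin, joins mesenchymal cells such as fibroblasts and osteoblasts. Its probe A_52_P437795 read -2.65, -2.54, -2.58 and -2.54 on control replicates 1 to 4 and -1.38, -1.30, -1.87 and -1.45 on tacrolimus replicates 1 to 4. The control arrays lay within a narrow band, and the lowest tacrolimus array, replicate 3, lay 0.68 above the highest control. The means were -2.58 ± 0.05 and -1.50 ± 0.25 (SD, n = 4 per group), a difference of 1.08 ± 0.13 (SE), or 2.11-fold.

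The other Cdh11 probe did not show that separation. A_55_P2181356 read -3.76, -3.96, -4.18 and -3.22 on the control arrays and -3.36, -3.49, -3.09 and -3.72 on the tacrolimus arrays. Control replicate 4 lay above all tacrolimus arrays but replicate 3, so that the groups overlapped, and the difference was 0.36 ± 0.24 (SE). After each value was centred on its group mean, the Cdh11 probes were related by r = -0.35 over the 8 arrays, a description of probes that share arrays. The 2610005L07Rik probe that shares the 21 bases was well above background on all 8 arrays, at 2.27 ± 0.12 (SD, n = 4) in control and 2.19 ± 0.20 in tacrolimus samples. The part of that likeness in the readout of A_55_P2181356 was not tested.

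Cdh6, or K-cadherin, is a cadherin of the developing and mature proximal tubule. Its probe A_55_P2067478, printed above, read -2.83, -3.26, -2.76 and -2.50 on the control arrays and -2.36, -2.00, -2.26 and -2.35 on the tacrolimus arrays. The groups lay 0.14 apart, with a difference of 0.60 ± 0.18 (SE), or 1.51-fold. A second probe, A_55_P2414619, differed by 0.56 ± 0.26, with 3 tacrolimus arrays above all controls. Tacrolimus replicate 3, at -3.03, lay below control replicates 1, 3 and 4, which read -2.85, -2.92 and -2.80. The Cdh9 probe that shares 14 bases with the first read -5.40 ± 0.59 (SD, n = 4) in control and -5.26 ± 0.39 in tacrolimus samples.

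Among the classical type I cadherins, only Cdh2 separated the groups, with the tacrolimus arrays above. Cdh4 had a lower mean in tacrolimus samples, but its groups overlapped and its brightest probe differed by less than the control SD of 0.59. Cdh1 and Cdh3 also differed by less than their spread. Cdh2, or N-cadherin, is the cadherin of neurons and mesenchyme and also of proximal tubule cells. Its brighter probe read -0.63, -1.62, -0.61 and -0.69 on the control arrays and 0.22, -0.45, 0.33 and -0.29 on the tacrolimus arrays. All tacrolimus arrays lay above all controls, by 0.16, and control replicate 2 lay far below the other controls. The difference was 0.84 ± 0.31 (SE), or 1.79-fold, and 0.60 without control replicate 2. The second Cdh2 probe also kept the groups apart, by 0.08, with a difference of 0.76 ± 0.28, and after centring on group means it tracked the first over the 8 arrays with r = 0.99.

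Cdh4, or R-cadherin, a cadherin of retina and brain that is also found in the developing kidney, had a lower mean in tacrolimus samples at both detected probes. The brightest probe read -1.67, -2.33, -0.94 and -1.96 on the control arrays and -2.50, -2.63, -1.80 and -2.12 on the tacrolimus arrays. Control replicate 3 was the highest of the 8 and the groups overlapped. The difference was -0.54 ± 0.35 (SE), and that of a second probe was -0.66 ± 0.33. Without control replicate 3 they were -0.28 and -0.41. The pair had r = 0.99 over the 8 arrays after centring. The third probe, A_52_P181943, was not detected on any array and gives no level for Cdh4.

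Cdh1, or E-cadherin, is the main adherens junction cadherin of epithelia. It is measured by 10 spots per array, whose SD within an array was 0.04 to 0.07. The means of those spots were 1.84, 2.17, 1.78 and 1.28 on the control arrays and 2.39, 1.13, 1.73 and 2.08 on the tacrolimus arrays. The highest and the lowest of the 8 were both tacrolimus arrays, and the arrays of a group spread far more (SD 0.37 in control and 0.54 in tacrolimus samples) than the spots of an array. The difference was 0.07 ± 0.33 (SE). Cdh3, or P-cadherin, which accompanies Cdh1 in placenta and basal epithelial layers, read -2.20 to -2.63 in control and -1.90 to -2.60 in tacrolimus samples, and differed by 0.09 ± 0.19. The signs of the Cdh1 and Cdh3 differences turned in some of the alternative settings, so that no direction is given for them.

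Of the non-classical cadherins, neither Cdh16 nor Cdh13 separated the groups. Cdh16, or kidney-specific cadherin, has a short cytoplasmic tail and lies along the basolateral membrane of tubule cells. It read 7.59, 7.73, 7.67 and 7.72 on the control arrays and 7.46, 7.58, 7.75 and 7.64 on the tacrolimus arrays. The 8 arrays spanned a narrow range and the groups overlapped, with a difference of -0.07 ± 0.07 (SE), whose sign also turned in some settings. Cdh13, or T-cadherin, is held in the membrane by a lipid anchor without a cytoplasmic tail, is found on endothelium and smooth muscle, and binds adiponectin. The probe printed above read -0.80, -0.49, -0.06 and -0.50 on the control arrays and -0.22, -0.26, -0.56 and -0.09 on the tacrolimus arrays, a difference of 0.18 ± 0.18, or 0.07 without control replicate 1 and 0.32 without control replicate 3. Every tacrolimus value lay within the range of the controls. The other Cdh13 probe, designed on another transcript, was detected on none of the arrays.

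**Figure D1:**
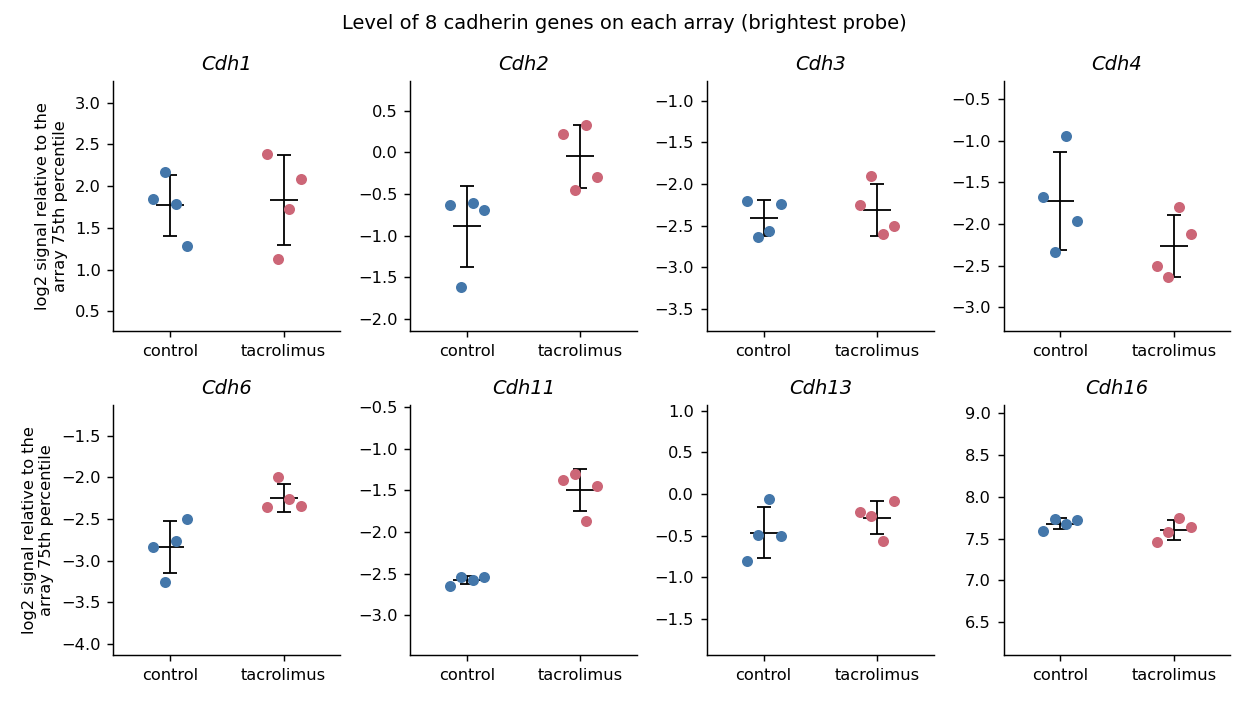
Level of each gene at its brightest probe, as log2 signal relative to the array's 75th percentile, for 4 control and 4 tacrolimus arrays; points are arrays, bars are mean ± SD, and every panel spans 3 log2 units around its own midpoint. The tacrolimus arrays lie above all controls for Cdh2, Cdh6 and Cdh11, and the controls of Cdh11 lie between -2.65 and -2.54.

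Counted at the brightest probe of each gene, the groups did not overlap for 3 of the 8 genes, Cdh2, Cdh6 and Cdh11, each with the tacrolimus arrays above. The groups did not overlap for 10.1% of all tested genes, 4.35% with the tacrolimus arrays above and 5.75% with them below. In the fit across all genes (limma), 3 of the 8, all higher, were under an unadjusted p of 0.05, where 15.5% of all tested genes were, 7.04% higher and 8.42% lower. At an adjusted p under 0.05 it called 1 of the 8, Cdh11, and 0.227% of all tested genes, 0.187% higher and 0.0398% lower. Because the genes were chosen with this comparison known, nothing is read from these counts. The call of Cdh11 was lost when control replicate 1, 2, 3 or 4 or tacrolimus replicate 1, 2 or 4 was left out. The median difference was 0.14 over the 8 genes and -0.05 over all tested genes.

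**Figure D2:**
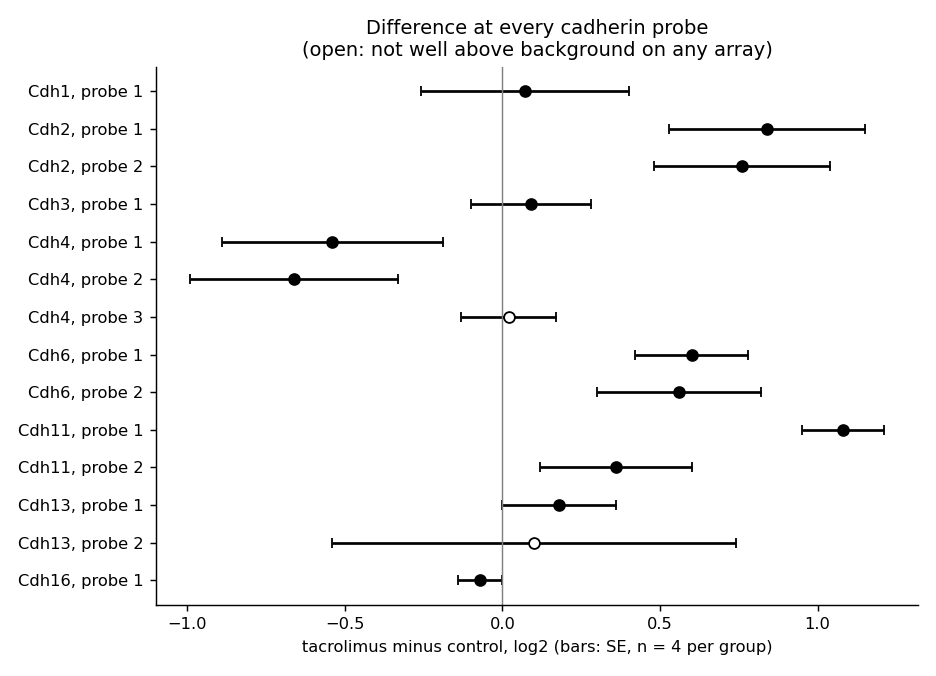
Tacrolimus minus control difference at each of the 14 probes, in log2 units, with bars for SE (n = 4 arrays per group); probe 1 of a gene is the brightest, and open points are probes that no array detected. The pairs of probes of Cdh2, Cdh4 and Cdh6 lie close together, and the Cdh11 probes lie apart, at 1.08 and 0.36.

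Cell type markers were read beside these values, and their part in the cadherin differences was not tested. In RNA of whole kidneys, more cells of a type and more RNA per cell cannot be told apart. The marker lists, and the further gene lists below, were chosen with earlier results of these data known. Nothing is therefore read from how their counts compare with the shares of all tested genes. All 9 fibroblast markers were higher at an unadjusted p under 0.05 (limma), as were 7.04% of all tested genes, and Col1a2, a chain of type I collagen, passed over all genes (adjusted p = 0.0462). Their mean level relative to the control mean was -0.14 to 0.13 on the control arrays and 1.12, 1.29, 0.60 and 1.26 on tacrolimus replicates 1 to 4. Tacrolimus replicate 3 was the lowest tacrolimus array for both the fibroblast markers and Cdh11 at its brightest probe. At the other Cdh11 probe it was the highest tacrolimus array, at -3.09. Of 7 tested macrophage markers, 6 were higher at an unadjusted p under 0.05 and none passed over all genes (limma). Their mean was -0.31 to 0.33 in control and 0.73 to 1.63 in tacrolimus samples, and Cd163 was not tested because it was too dim.

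Adipocyte markers were high on control replicate 2, at 2.61, against -1.11 to -0.51 on the other controls, and reached 2.53 to 6.22 on the tacrolimus arrays. Plin1, a coat protein of lipid droplets, was detected on no control array and met the filter through the tacrolimus arrays alone. Adipoq was detected on 1 control array, Cidec on 2, Retn on 3 and Cfd on 4, and Lep was too dim to be tested. The low control values of these markers, and so the size of the group difference, thus rest in part on signal near background. Without control replicate 2 and tacrolimus replicate 4, the highest of each group in these markers, Cdh11 differed by 1.07. Neither array stood apart from its group in Cdh11 at its brightest probe. The remaining arrays still differed in the adipocyte markers, at -1.11 to -0.51 in control and 2.53 to 3.47 in tacrolimus samples. The part of adipocyte RNA in the Cdh11 difference was therefore not tested by leaving them out. Proximal tubule markers, the compartment of Cdh2 and Cdh6, had a median difference of -0.12 over 8 genes, with 1 lower at an unadjusted p under 0.05. Markers of the loop, distal tubule and collecting duct, the compartment of Cdh1, had a median difference of 0.11 over 8 genes, with 1 higher. Endothelial markers differed by a median of -0.07 over 8 genes, with none under an unadjusted p of 0.05 or an adjusted one (limma), and Cdh5, the endothelial cadherin on that list, differed by -0.14 ± 0.13 (SE). Of 7 pericyte and smooth muscle markers 1 was higher at an unadjusted p under 0.05, and of 5 podocyte and 6 urothelium markers none was (limma). The mean of the urothelium markers reached 1.73 on tacrolimus replicate 1 and 2.88 on replicate 4, against -0.64 to 0.22 on the other 6 arrays.

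**Figure D3:**
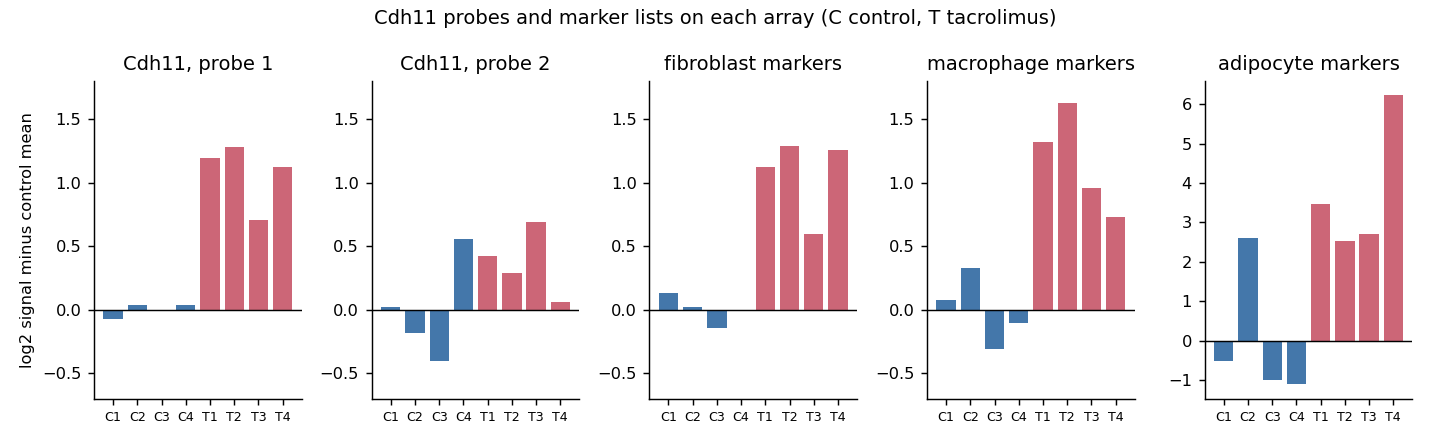
Both Cdh11 probes and the mean of the fibroblast, macrophage and adipocyte markers on each array, as log2 signal minus the control mean (the adipocyte panel has its own scale). The tacrolimus arrays lie above all controls for the first Cdh11 probe and for the fibroblast and macrophage markers, and not for the second Cdh11 probe.

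The remaining cadherin family was read from a list of 42 further classical cadherins, protocadherins and large cadherins, of which 30 were tested and 12 were too dim. Of the 30, 1 was higher and none lower at an adjusted p under 0.05 (limma), where 0.187% of all tested genes were higher and 0.0398% lower. Cdh22, a type II cadherin best known from brain, read -4.88, -5.44, -5.26 and -4.36 on the control arrays and -3.54, -3.23, -3.43 and -2.87 on the tacrolimus arrays. All tacrolimus arrays lay above all controls, and it rose by 1.72 ± 0.25 (SE, limma, adjusted p = 0.047). It stayed called in the fit without control replicate 4 and in none of the other fits that leave out 1 array, where the adjusted p was 0.0757 to 0.131. The call was also lost with quantile normalization (adjusted p = 0.0534), the array median (0.0514) and no filter on dim probes (0.0774), and the difference was 0.82 with normexp and 1.07 with the deposited table, both called (limma). Fat4, a giant cadherin of planar cell polarity, differed by 0.54 ± 0.18 (limma, adjusted p = 0.235). The protocadherin Pcdh18 differed by 0.27 ± 0.12 (limma, adjusted p = 0.325). The median difference of the 30 was -0.05, the same as over all genes tested.

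Of the proteins that bind the cadherin tail or lie beside it in the junction, none of 17 tested passed the adjusted threshold (limma). Without adjustment, 2 were higher and 1 was lower (p under 0.05), against 15.5% of all tested genes under that p. Beta-catenin, Ctnnb1, which links classical cadherins to alpha-catenin, read 4.02 ± 0.08 (SD, n = 4) in control and 3.94 ± 0.09 in tacrolimus samples. Alpha-catenin, Ctnna1, read 5.61 ± 0.04 and 5.55 ± 0.05, and p120-catenin, Ctnnd1, read 3.62 ± 0.08 and 3.56 ± 0.09. For each of the 3 the groups overlapped. Ctnnd2, a p120 relative best known from neurons, differed by 1.10 ± 0.37 (SE, limma, adjusted p = 0.23) with 2 control arrays well above background, and by 0.89 at a second probe. Afdn, or afadin, which ties nectins to actin, differed by -0.34 ± 0.13 (limma, adjusted p = 0.266). Nectin2, a nectin of epithelial junctions, differed by 0.34 ± 0.13 (limma, adjusted p = 0.272), with 0.32 at a second probe.

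Desmosomes join keratin filaments across cells through their own cadherins. Of 7 tested desmosome genes, 1 was higher and none lower at an adjusted p under 0.05 (limma). Of all tested genes, 0.187% were higher and 0.0398% lower at that threshold. Pkp1, a plakophilin of stratified epithelium that stabilises desmosomes, was detected on no control array, where it averaged -7.57, and read -4.75, -4.61, -5.26 and -4.94 on the tacrolimus arrays. It was at least 2.28-fold higher, taking for each control array the higher of its lowest signal well above background and the probe's own signal. That bound carries no test. The call (limma, adjusted p = 0.0108) belongs to the fitted difference of 2.68, which rests on control values at background. Pkp1 met the filter of 4 detected arrays through the tacrolimus arrays alone. Without control replicate 2 it was not called (limma, adjusted p = 0.0523). After normexp background correction it differed by 0.47, less than the bound, and was not called either (limma, adjusted p = 0.0548). Among the settings that tested Pkp1, the lowest limma adjusted p was 0.0075 and the highest 0.0904. Pkp3 and Perp, further desmosome genes of epithelia, differed by -0.28 ± 0.13 (SE) and -0.20 ± 0.12, and neither passed. The desmosomal cadherins Dsg2 and Dsc2 differed by 0.17 ± 0.15 and 0.00 ± 0.15, and Dsc1, Dsc3, Dsg1a and Dsg3 were too dim to be tested.

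Transcription factors that repress Cdh1 or mark mesenchymal cells formed a list of 10 genes, of which 9 were tested and none passed over all genes (limma). At an unadjusted p under 0.05, 4 were higher and none lower, against 7.04% of all tested genes higher and 8.42% lower. Because this list was written with earlier results of these data known, nothing is read from that count. Prrx1, a homeobox factor of mesenchyme, differed by 1.10 ± 0.25 (SE, limma, adjusted p = 0.102), and by 1.18 at a second probe. With array weights it passed (adjusted p = 0.0493, within a limma range over settings of 0.0493 to 0.29). Snai2, or Slug, an E-box repressor, read -0.77, -1.09, -1.15 and -0.86 on the control arrays and -0.34, -0.29, -0.58 and -0.55 on the tacrolimus arrays, which all lay above the controls (0.53 ± 0.12, limma, adjusted p = 0.109). Snai1, or Snail, differed by 0.53 ± 0.18 (limma, adjusted p = 0.23), with control replicate 4 at -1.55 above 2 of the tacrolimus arrays. Zeb1 and Zeb2, which bind the same E-boxes, differed by -0.12 ± 0.15 and -0.07 ± 0.11.

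Enzymes that cleave or turn over cadherins gave no call among 13 tested genes (limma). Without adjustment, 3 were higher and none was lower (p under 0.05), where 7.04% of all tested genes were higher. The higher ones were Mmp7, Mmp14 and Mmp2, while Mmp3, a further matrix metalloproteinase, differed by -0.82 ± 0.54 (SE) and Mmp9 was too dim to be tested. Mmp7, or matrilysin, which can release the outer part of Cdh1, differed by 1.99 ± 0.32 (SE, limma, adjusted p = 0.0552), with 2 control arrays well above background. It was called with normexp (0.68, adjusted p = 0.0314), the deposited table (0.98, adjusted p = 0.0441), trend and robust estimation (adjusted p = 0.0336) and array weights (adjusted p = 0.0405), within a limma range over settings of 0.0314 to 0.146. Mmp14, a membrane-bound collagenase, differed by 0.80 ± 0.13 (limma, adjusted p = 0.0553). It was called with the deposited table (0.52, adjusted p = 0.0442), the filter on all 8 arrays (adjusted p = 0.0454) and array weights (adjusted p = 0.0391), and differed by 0.42 with normexp, within a limma range over settings of 0.0391 to 0.157. Mmp2, a gelatinase that Mmp14 activates, differed by 0.63 ± 0.20 (limma, adjusted p = 0.205). Adam10, the main sheddase of Cdh1 and Cdh2, differed by 0.08 ± 0.10.

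**Figure D4:**
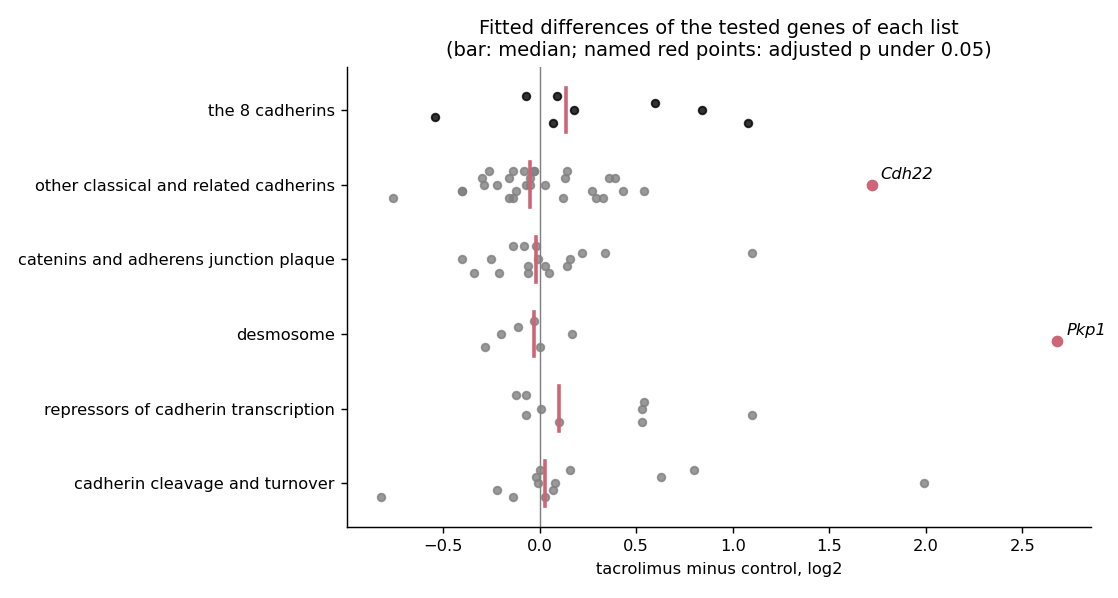
Fitted tacrolimus minus control difference, in log2 units, of the 8 cadherins and of every tested gene of the 5 further lists; each point is a gene and each vertical bar a list's median. Cdh22 and Pkp1 are the genes of the 5 lists with an adjusted p under 0.05, and the fitted value of Pkp1 rests on control arrays at background.

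The genes whose pattern over the 8 arrays was most like that of Cdh11 were ranked after every value had been centred on its group mean, which removes the treatment difference. Among 17059 genes with a symbol, the highest Pearson correlations with the brightest Cdh11 probe were those of Dact1 (r = 0.977), a Wnt signalling regulator, and Nod1 (r = 0.975), a receptor for bacterial cell wall fragments. Fthl17-ps1, Cfb and Rapgefl1 followed at 0.965, 0.957 and 0.956. These are the highest of many correlations over 8 arrays, in which the control arrays of Cdh11 hardly vary, so that the ranking rests mainly on the tacrolimus arrays. Between the groups, Dact1 differed by 0.29, Nod1 by 0.09, Fthl17-ps1 by -0.57, Cfb by -0.18 and Rapgefl1 by 0.09.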

How the data were processed

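Spot intensities of 8 arrays were deposited as scanner files, 1 array each, which per the file headers the authors made in Agilent's Feature Extraction software (version 10.7.3.1), with background subtraction and spatial detrending and no normalization between arrays. A further deposited table gives log2 values, equal within 5e-09 to quantile-normalized median intensities on that scale. The submitters' processing notes name limma, without settings.

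Control spots and outlier spots were left out. The log2 processed intensity was set relative to the array's 75th percentile, spots of a probe were averaged, and probes detected (well above background) on 4 or more of the 8 arrays were tested, each gene by its brightest probe, under RefSeq symbols (GRCm38.p6). The comparison used limma (3.58.1, in R 4.3.3), two-sided, Benjamini-Hochberg adjusted over 25127 genes. The SE of the 8 cadherins comes from the group SDs, and that of other genes from limma. The number of arrays limits the precision. The fit was tested on simulated data.

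The text names all 8 cadherins, in each further list the 3 genes with the lowest unadjusted p and every called gene, and the 5 genes most like Cdh11. Ctnnb1, Ctnna1, Ctnnd1, Adam10, Cdh5, Zeb1, Zeb2, Dsg2 and Dsc2 were added for their roles after their values were seen. Members and lists were chosen with earlier results of these data known. Alternatives were other normalizations, normexp (offset 50), the deposited table, other filters, the mean of a gene's probes, other variance models, the replicate block and leaving out arrays.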

Additional observations from a re-analysis of the deposited data

Results flagged for a closer look

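Groups of 4 arrays were checked for a sample whose gap to its nearest neighbour takes up more of the group's range than Dixon's critical value allows, over the detected cadherin probes and the named genes of the further lists. Of 54 such groups 5 met this, where chance gives about 1 in 20. For Cdh2, control replicate 2 read -1.62 at the brighter probe, below the other controls at -0.69 to -0.61. Control replicate 4 stood above the other controls for Mmp14, at -4.04 against -4.24 to -4.23, for Prrx1, at -3.0 against -3.67 to -3.58, and for Snai1, at -1.55 against -2.14 on each of the others. For Afdn, tacrolimus replicate 4 read -3.24, below the other tacrolimus arrays at -2.90 to -2.85.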

How the results depend on the processing

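The count of cadherin genes whose groups did not overlap was 3 with quantile normalization, the array median, normexp, the deposited table and the mean of a gene's probes; the other alternatives could not lower it. Both probes of Cdh2, both of Cdh6 and both detected probes of Cdh4 kept their direction in all 17 alternatives run on single probes. Cdh11 differed by 0.82 with normexp, which adds an offset to the signal, by 0.72 with the mean of its probes, by 0.36 at the other probe alone, and by 1.01 to 1.20 with 1 array left out. Cdh11 was not called with the mean of its probes, in the replicate block fit or without control replicate 2 and tacrolimus replicate 4 (0 of the 8 genes called), and with 1 array left out the count was 0 to 1. The count of genes called among all tested, 57, was 285 with normexp, 180 with the deposited table, 32 with no filter on dim probes, 151 with a filter on all 8 arrays, 221 with trend and robust estimation, 309 with array weights and 7 to 56 with 1 array left out. Leaving out both control replicate 2 and tacrolimus replicate 4 gave 8, a setting chosen after seeing the data, as was the other Cdh11 probe alone. Of the 5 further lists, 2 genes were called, against 1 with quantile normalization, with the array median and with no filter, 4 with the deposited table, 5 with array weights, 0 to 2 with 1 array left out and 0 without both arrays named above. The cause of these changes was not tested. In the replicate block fit 103 genes were called and 2 of the lists. Arrays with the same replicate number had deviations that correlated by 0.16, 0.02, 0.14 and 0.06. For every control replicate this was its highest correlation with a tacrolimus array. Tacrolimus replicate 2, however, correlated better with control replicate 1, at 0.06, than with its own number. Such small values cannot decide whether the numbers mark pairs. Signal close to background limits the probes of Cdh4 and Cdh13 that were not detected, Pkp1, and adipocyte markers on the control arrays.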
